A study of Mus musculus with 8 samples.

Results

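Glycolysis splits glucose to pyruvate in the cytosol, and lactate dehydrogenase turns pyruvate into lactate and back. In mitochondria the pyruvate dehydrogenase complex makes acetyl-CoA from pyruvate, and the citric acid cycle oxidises it, with 2-oxoglutarate dehydrogenase as one of its regulated steps. Many of these enzymes have paralogues that differ in tissue distribution or control, such as hexokinase 1, found in most tissues, and hexokinase 2, the inducible form. The members described here are 39 genes of these pathways, listed by symbol with earlier results of these data known. The members matched 40 of 53801 rows, because Aldoa names 2 rows.

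RNA came from CD45- CD31- stromal cells of the small intestine of LTβRYFP mice, sorted by flow cytometry into YFP+ and YFP- cells, with 4 libraries of each. CD45 marks blood cells and CD31 marks endothelium, and both groups are labelled as negative for both. The labels do not say which cells the YFP follows or whether animals were pooled. Samples were grouped by description and genotype, which agree. All 8 titles carry the opposite sign, and by the titles each direction given here would be reversed. Libraries with equal replicate numbers were treated as pairs.

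Totals ran from 23272858 to 29829232 counts per library, and no library stood apart in depth. Mitochondrially encoded RNA took 5.20% to 7.38% of counts in YFP- and 4.13% to 4.86% in YFP+, without overlap. Most fibroblast markers listed were abundant in both groups, but Thy1 did not exceed 2.34 CPM in any library. Pdgfra, the receptor that marks gut fibroblasts, ranged from 1007 to 1101 CPM (TMM-scaled counts relative to library size) in YFP- libraries, against 877 to 1183 CPM in YFP+. Ptprc, which encodes CD45, did not exceed 6.22 CPM in any library, and Pecam1, which encodes CD31, did not exceed 11.8 CPM. Of 10 fibroblast markers 5 fell in YFP+, the matrix genes Col1a1, Col1a2, Col3a1, Dcn and Lum, with log2 changes from -0.43 to -0.23, and Pdgfrb rose (0.29). Their summed level was 40458 to 47749 CPM for YFP- and 35496 to 39159 CPM for YFP+, and without the block 2 fell and 0 rose. Markers of other cell types differed too. Of 10 markers of enteric glia 9 fell in YFP+, and their summed level was 126 to 201 CPM for YFP- libraries against 9.16 to 11.8 CPM in YFP+. Of 13 tested epithelial markers 6 fell, with sums over the 14 listed of 28.7 to 79.2 CPM and 10.4 to 12.3 CPM. Of 8 smooth muscle markers 7 rose, with sums of 271 to 557 CPM for YFP- libraries against 439 to 966 CPM in YFP+, which overlap, and without the block 1 of the 7 was called. Of 7 endothelial markers 3 fell, Pecam1 (-0.69), Tek (-0.76) and Plvap (-0.58), with sums of 60.3 to 89.7 CPM and 40.2 to 52.2 CPM, and without the block 1 fell. Of 4 tested neuronal markers 2 fell, and of 3 markers of interstitial cells of Cajal 1 rose. Of 6 mural markers Cspg4 rose (0.66) and Mcam fell (-1.89), both also without the block. Mural sums were 1075 to 1249 CPM for YFP- libraries against 1203 to 1416 CPM in YFP+. Most of this was Rgs5, at 842 to 1041 CPM and 872 to 1084 CPM, a level like that of Pdgfra. No marker of blood cells (6 tested) or mesothelium (1 tested) passed, also without the block. Blood cell RNA was present, with sums over the 10 listed of 74.2 to 276 CPM for YFP- libraries against 37.7 to 325 CPM in YFP+. Among them Igha had 51.7 to 212 CPM and 21.2 to 249 CPM, and Jchain 14.9 to 55.6 CPM and 12.3 to 58.8 CPM.

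Of the 39 genes, 38 passed the filter on low counts and were tested, and 2 differed between YFP+ and YFP-. Hk2, which encodes hexokinase 2, fell, and Ogdhl, which encodes a paralogue of the E1 subunit of 2-oxoglutarate dehydrogenase, rose (edgeR quasi-likelihood fit blocked on replicate number, adjusted p below 0.05). The 2 of 38 called make 5.26%, against 11.5% of all 16354 genes tested. By direction, 3.65% of all genes were called higher and 7.85% lower, and the enzymes had 1 call each way. Without the block 4.26% of all genes were called, and the same 2 enzymes. In the authors' deposited table, a share of 9.36% of genes with an adjusted p were below 0.05, and Hk2 and Ogdhl were again the 2 enzymes among them. The share called among the enzymes was thus below the share over all genes with the block, and close to it without.

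The start regions of both called genes are shown because they are the regulatory sequence next to the 2 genes whose RNA differed. Each runs from 250 bases before the start site to 20 bases after it, 5′ to 3′ on the gene's strand (RefSeq, GRCm38.p6). Capitals mark ACGTG or its reverse complement CACGT, the core bound by hypoxia-inducible factors and shared by the E-box CACGTG of Myc. The Hk2 window is chr6:82774435-82774704 on the minus strand and the Ogdhl window is chr14:32321769-32322038 on the plus strand.
Hk2: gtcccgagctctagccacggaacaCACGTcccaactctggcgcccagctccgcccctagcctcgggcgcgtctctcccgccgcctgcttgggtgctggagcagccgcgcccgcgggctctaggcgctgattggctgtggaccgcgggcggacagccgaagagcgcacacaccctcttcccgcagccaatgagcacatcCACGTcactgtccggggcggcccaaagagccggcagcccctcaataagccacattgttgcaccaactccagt
Ogdhl: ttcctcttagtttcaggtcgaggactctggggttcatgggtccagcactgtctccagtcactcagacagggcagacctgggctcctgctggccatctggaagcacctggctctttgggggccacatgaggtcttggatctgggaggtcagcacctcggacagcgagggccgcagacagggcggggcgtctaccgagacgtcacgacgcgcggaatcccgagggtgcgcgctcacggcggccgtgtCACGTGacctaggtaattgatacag

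The Hk2 window held the pentamer at 226 and 52 bases before the start site, in both places as CACGT. In the Ogdhl window a full CACGTG began 5 bases before the start site. A CACGTG contains ACGTG on both strands, so the searches overlap. Start windows were found for 38 of the 39 symbols, 56 windows in all. Of these, 37.5% held ACGTG on either strand and 12.5% held CACGTG, against 17.9% and 6.57% of all 32851 windows of that length. The 32851 windows were not limited to genes tested here, so the shares are not a like comparison. Genes with the CACGTG were Ldha, Ogdh, Ogdhl, Pcx and Pfkm, of which Ogdhl alone was called. The ACGTG letters were present beside Ogdhl, which rose, Hk2, which fell, and enzymes that were not called. Binding was not measured here, and any part of these letters in the differences was not tested.

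Hk2 was lower in every YFP+ library than in any YFP- library. The enzyme phosphorylates glucose at the entry to glycolysis and is the form that growth signals and low oxygen are known to induce. Hk2 (ENSMUSG00000000628) spans bases 82725025 to 82774454 of chromosome 6, minus strand (GRCm38). Its level was 83.8, 89.0, 95.2 and 112 CPM in YFP- replicates 1 to 4 and 48.0, 54.7, 49.1 and 77.7 CPM in YFP+. These rested on 1288 to 3093 counts per library. Libraries numbered 4 were the highest of each group, and the groups did not overlap. The log2 change was -0.75 (SE 0.07, edgeR adjusted p = 3.54e-08), with a 95% interval from -0.89 to -0.60, and it was lower in 4 of 4 pairs. Without the block the adjusted p was 0.0166. None of its 50-base stretches occurs in another annotated gene.

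Hk1, the other hexokinase measured, did not pass. It stood at 78.1, 73.5, 69.8 and 68.5 CPM for YFP- libraries against 80.7, 73.1, 81.6 and 74.3 CPM for YFP+ (log2 change 0.10, SE 0.07, edgeR adjusted p = 0.425). The groups overlapped. Per kilobase of exon, Hk2 made up 60.5% to 70.1% of the hexokinase 1 and 2 level in YFP- and 45.9% to 59.9% in YFP+. The mean share was 65.0% in YFP- and 50.9% in YFP+, where replicate 4 had the 59.9%. These shares rest on annotated exon lengths of 5969 bases for Hk2 and 8532 for Hk1. Fewer cells of a type with much Hk2 and less Hk2 RNA per cell cannot be told apart in these bulk libraries. The glial, epithelial, endothelial and fibroblast matrix markers named above and the mitochondrial share were also lower in YFP+, and their part in the Hk2 difference was not tested.

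Ogdhl was higher in every YFP+ library than in any YFP- library. E1 is the subunit that decarboxylates 2-oxoglutarate, and Ogdhl is best known from brain and liver, whereas Ogdh is the widely used form. Its gene (ENSMUSG00000021913) spans bases 32322019 to 32348151 of chromosome 14, plus strand. Levels were 7.12, 9.21, 9.07 and 8.02 CPM in YFP- replicates 1 to 4 and 13.1, 23.9, 18.7 and 20.8 CPM in YFP+. They rested on 161 to 221 counts in YFP- and 352 to 599 in YFP+. YFP+ replicate 1 was the lowest of its group, and its partner was also the lowest of the YFP- libraries. The log2 change was 1.17 (SE 0.14, edgeR adjusted p = 8.69e-07) with a 95% interval from 0.89 to 1.45, and 4 of 4 pairs were higher. Without the block the adjusted p was 0.000676. This gene also shares no 50-base stretch with another annotated gene. Smooth muscle markers, Pdgfrb and Cspg4 were higher in YFP+ as well, and Mcam and the mitochondrial share were lower, as given above. The part of these markers and of that share in the Ogdhl difference was not tested.

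**Figure D1:**
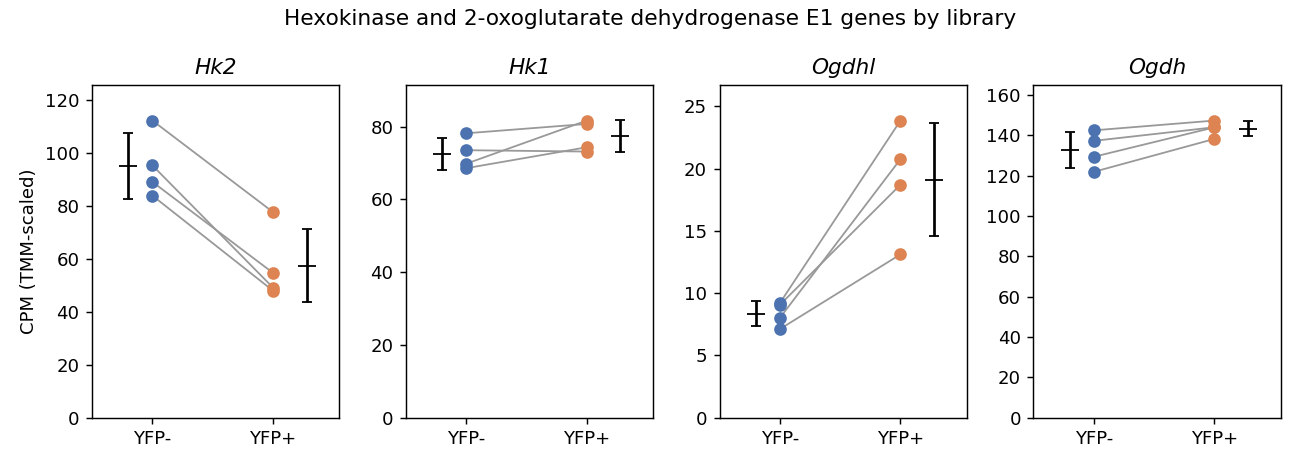
CPM of Hk2, Hk1, Ogdhl and Ogdh in each library, with grey lines joining libraries of equal replicate number and black bars giving the mean and SD of 4 libraries; each panel has its own linear axis from 0. All 4 lines fall for Hk2 and rise for Ogdhl, and the groups overlap for Hk1 and Ogdh.

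Ogdh remained the main E1 gene in both groups. It was at 142, 122, 129 and 137 CPM for YFP- libraries against 147, 138, 144 and 144 CPM in YFP+, a log2 change of 0.11 (SE 0.06, edgeR adjusted p = 0.249). The groups overlapped, although all 4 pairs were higher in YFP+. Ogdhl made up 6.16% to 9.04% of the E1 level per kilobase in YFP- and 10.5% to 18.5% in YFP+. The mean log2 ratio of Ogdhl to Ogdh CPM was -3.996 ± 0.27 for YFP- against -2.94 ± 0.40 for YFP+ (SD, n = 4 each). The difference was 1.05, with an exact two-sided permutation p of 0.0286 over 70 arrangements, the smallest this design allows. Flipping signs within the 4 pairs gave an exact p of 0.125, again the smallest possible. The rise of Ogdhl was known when this ratio was chosen. Mean Ogdhl was 8.35 CPM for YFP- libraries against 19.1 CPM in YFP+, far below Ogdh in every library. More cells of a type with much Ogdhl and more Ogdhl RNA per cell cannot be told apart in these bulk libraries.

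The partner subunits of the 2-oxoglutarate dehydrogenase complex did not pass. Dlst, the E2 subunit that carries the lipoyl group, was at 66.5 ± 5.98 CPM for YFP- libraries against 74.5 ± 4.09 CPM for YFP+ (SD, n = 4 each). Its log2 change was 0.17 (edgeR adjusted p = 0.116, unadjusted interval 0.03 to 0.30), positive in 4 of 4 pairs. Dld, the E3 subunit that this complex shares with pyruvate dehydrogenase, had a log2 change of -0.04 (edgeR adjusted p = 0.845). Dhtkd1, another E1 paralogue that acts on 2-oxoadipate, had 1.63 to 3.23 CPM for YFP- libraries against 2.39 to 4.61 CPM for YFP+ (edgeR adjusted p = 0.480).

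For the 36 tested enzymes that were not called, log2 changes ran from -0.43 (Ldhb) to 0.22 (Eno1). In 34 of them, taking the main Aldoa row, the 95% interval lay within a 1.5-fold difference in either direction (33 without the block), and the exceptions were Ldhb and Pgam1. Over the 38 tested enzymes the median log2 change was 0.04, against 0.01 over all genes. Their median absolute log2 change was 0.087, against 0.132 over the 11474 genes with at least the mean level of the lowest tested enzyme. That lowest level was 3.56 CPM, and above it the enzymes and the other genes were not matched on level. A difference of at least 0.5 on the log2 scale was found in 7.38% of those 11474 genes and in Hk2 and Ogdhl among the enzymes.

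**Figure D2:**
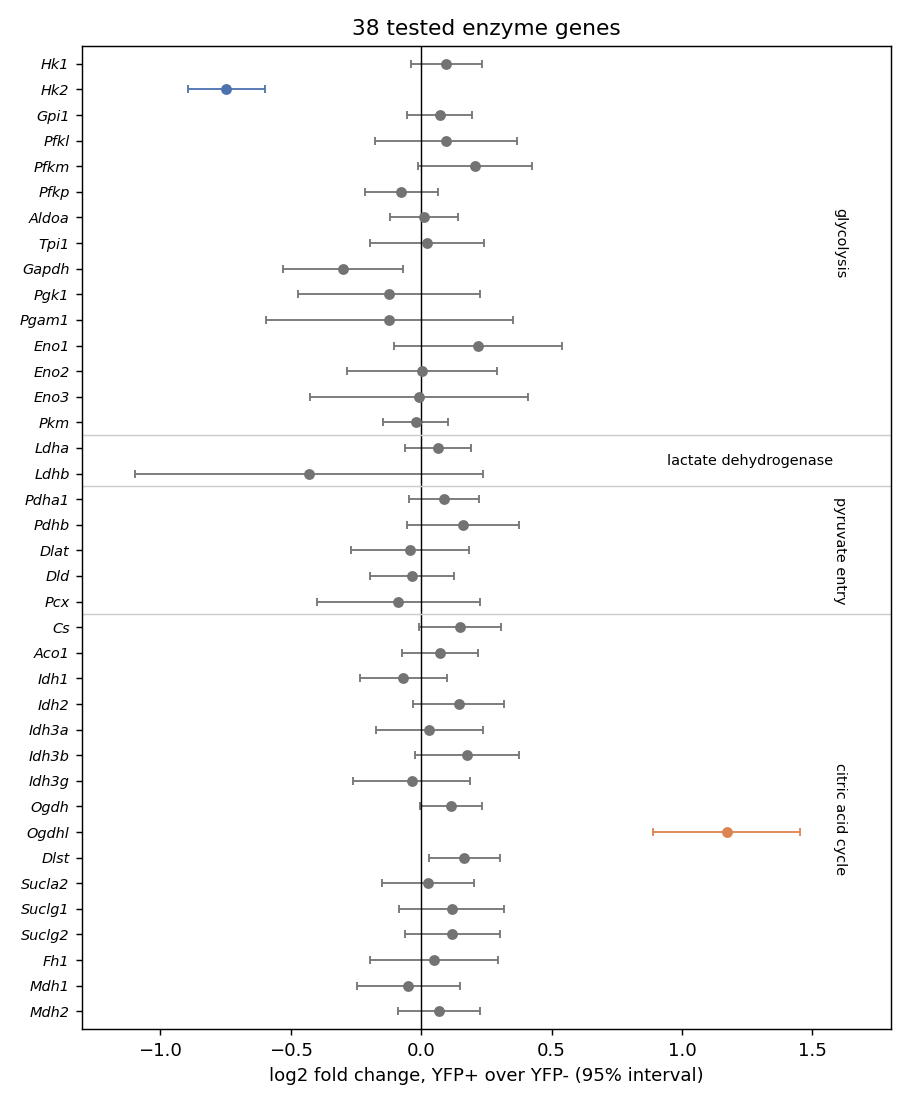
Log2 fold change of YFP+ over YFP- with its 95% interval for each of the 38 tested enzymes, grouped by pathway; blue marks a gene called lower, orange one called higher and grey genes not called. Hk2 at -0.75 and Ogdhl at 1.17 stand outside a band from -0.43 to 0.22 that holds the other 36.

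Below hexokinase, none of the tested glycolytic genes passed. Gpi1, which converts glucose 6-phosphate to fructose 6-phosphate, averaged 94.5 ± 5.14 CPM for YFP- libraries against 99.3 ± 5.13 CPM for YFP+ (SD, n = 4 each). Phosphofructokinase, the committed step, came from 3 genes. Pfkm was the most abundant of them per kilobase, at 22.8, 24.7, 19.9 and 20.1 CPM for YFP- libraries against 22.9, 25.9, 25.8 and 26.1 CPM in YFP+. It was higher in 4 of 4 pairs, but the groups overlapped and the edgeR adjusted p was 0.257. Pfkp had more CPM, 68.5 to 78.0 for YFP- libraries against 63.5 to 82.3 CPM in YFP+. Its annotated exons cover 13401 bases, against 3340 for Pfkm, so which gene leads depends on that length. Pfkp had a log2 change of -0.08 and Pfkl of 0.09. Pfkm made up 44.9% to 49.2% of the family level per kilobase in YFP- and 48.4% to 53.6% in YFP+, while Pfkp held 37.7% to 41.8% and 32.6% to 38.5%.

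Aldoa accounted for nearly all aldolase RNA. This enzyme splits fructose 1,6-bisphosphate, and its gene stood at 96.9, 86.6, 84.2 and 80.0 CPM for YFP- libraries against 89.3, 90.8, 87.8 and 81.8 CPM in YFP+. The difference was 0.01 on the log2 scale with a 95% interval from -0.12 to 0.14. A second row named Aldoa, just upstream on the same strand, held about 1% as much, and its log2 change of 0.01 had an SE of 0.54, above that of every other tested row of the 39 symbols. Aldoc, the aldolase of brain and glia, did not pass the filter, with 2 to 27 counts per library. Its highest value, 1.13 CPM, was in YFP- replicate 2.

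Triose to pyruvate was covered by 8 genes, of which 0 passed, also without the block. At an unadjusted p below 0.05 there was Gapdh, the glyceraldehyde 3-phosphate dehydrogenase gene. It was at 19.2, 27.7, 19.0 and 19.5 CPM for YFP- libraries against 15.4, 20.03, 17.1 and 16.3 CPM in YFP+, lower in 4 of 4 pairs (log2 change -0.30, SE 0.11, edgeR adjusted p = 0.0890). The groups overlapped through YFP+ replicate 2. Tpi1, the isomerase before it, had a log2 change of 0.02 and Pkm, the pyruvate kinase gene, of -0.02. Pkm reached 119 to 129 CPM for YFP- libraries against 115 to 127 CPM in YFP+. Pgk1 and Pgam1, kinase and mutase of the phosphoglycerates, both had a log2 change of -0.12.

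The enolases had similar levels per kilobase of annotated exon, over 5379 bases for Eno1, 4705 for Eno2 and 1739 for Eno3. In CPM, Eno3 was below the other enolases, so the similarity depends on these lengths. Eno3, best known from muscle, stood at 6.41, 5.44, 5.96 and 5.59 CPM for YFP- libraries against 6.07, 5.18, 6.32 and 5.72 CPM in YFP+. Eno1, the widespread form, and Eno2, the neuronal form, averaged 13.6 and 12.9 CPM for YFP- libraries against 15.6 and 13.2 CPM in YFP+. Per kilobase of exon, Eno3 held 36.6% to 41.9% of enolase RNA in YFP- and 31.9% to 42.8% in YFP+. Levels of several of these genes are uncertain because their sequence recurs elsewhere. Of the stretches of 50 bases in Pgk1, 53.9% occur in another annotated gene, in Pgam1 36.2%, in Eno1 26.0%, in Pkm 25.8% and in Gapdh 25.1%. For Gapdh, 213 pseudogenes share such a stretch. No source used here says how reads with several matches were counted, so the order of levels across these genes may not be that of their RNA.

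Lactate dehydrogenase RNA was mostly Ldha, the form known for making lactate. Ldha was at 136, 104, 134 and 126 CPM for YFP- libraries against 138, 121, 129 and 134 CPM in YFP+, with overlap between the groups (log2 change 0.06, edgeR adjusted p = 0.586). Ldhb, the heart-type form, had 2.28 to 6.54 CPM for YFP- libraries against 1.75 to 4.03 CPM in YFP+. It did not pass (log2 change -0.43, SE 0.32, edgeR adjusted p = 0.490), and its 95% interval, from -1.10 to 0.24, was wide. Ldha held 90.5% to 96.3% of the family level per kilobase in YFP- and 93.4% to 97.4% in YFP+.

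The 5 genes for the entry of pyruvate into the cycle were not called. Pdha1 and Pdhb encode the E1 subunits of pyruvate dehydrogenase, Dlat its E2, and Pcx the carboxylase that makes oxaloacetate. Pdha1 averaged 94.5 ± 7.55 CPM for YFP- libraries against 100.3 ± 6.69 CPM for YFP+ (SD, n = 4 each). The 5 log2 changes ran from -0.09 (Pcx) to 0.16 (Pdhb). Exons of Map3k15 on the opposite strand overlap 16.1% of the Pdha1 exons, and the strand setting of the counting is not given.

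In the citric acid cycle proper, 13 of 16 tested genes had a positive estimate, and Ogdhl was the 1 called. Cs, citrate synthase, had a log2 change of 0.15 (edgeR adjusted p = 0.256), and Aco1, the cytosolic aconitase that also binds iron-responsive RNA, of 0.07. The 3 subunits of the NAD-dependent isocitrate dehydrogenase had log2 changes of 0.03 (Idh3a), 0.17 (Idh3b) and -0.04 (Idh3g). Idh1, the cytosolic NADP-dependent form, was at 56.9, 50.04, 47.8 and 53.4 CPM for YFP- libraries against 46.3, 50.5, 52.1 and 49.5 CPM in YFP+. Idh2, its mitochondrial counterpart, averaged 44.6 and 49.7 CPM. The pair was near equal per kilobase in both groups, with Idh2 at 45.8% to 50.6% and 48.5% to 55.0%.

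The later steps were as even. Sucla2, the ATP-specific beta subunit of succinyl-CoA ligase, was at 40.8, 35.8, 44.0 and 40.6 CPM for YFP- libraries against 42.3, 35.4, 41.0 and 45.5 CPM in YFP+. Suclg2, the GTP-specific one, held 42.8% to 55.7% of the beta-subunit level per kilobase in YFP- and 44.9% to 56.5% in YFP+. In both groups its highest share was in the library numbered 2. Suclg1, the alpha subunit, had a log2 change of 0.12 and Fh1, fumarase, of 0.05. Mdh2, the mitochondrial malate dehydrogenase, was at 52.3, 52.3, 49.7 and 49.0 CPM for YFP- libraries against 49.1, 59.3, 52.3 and 52.8 CPM in YFP+. Mdh1, its cytosolic counterpart, had a log2 change of -0.05.

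**Figure D3:**
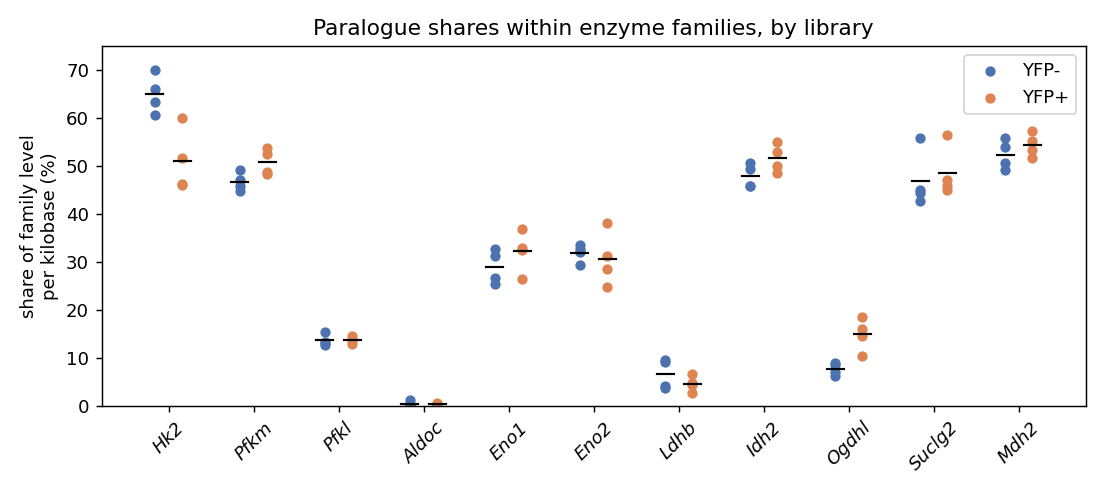
Share of each named paralogue in the summed level per kilobase of its enzyme family in percent, by library; points are libraries and black lines the group means. The groups are apart for Hk2 (60.5% to 70.1% in YFP-, 45.9% to 59.9% in YFP+) and Ogdhl (6.16% to 9.04%, 10.5% to 18.5%), and overlap for the other 9 paralogues drawn.

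The surrounding pathway was described with 116 further genes in 9 lists, of which 106 were tested. By the same fit 1 rose and 13 fell, or 13.2% called against 11.5% of all genes, and the median log2 change was -0.02. Over all genes 3.65% were called higher and 7.85% lower. Without the block 5 of the 106 were called, all lower, and 4.26% of all genes were called in either direction. Slc16a1, Gpt2, Ndrg1 and Myc were among those 5.

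Transport and glutamate entry together held 4 falls. Slc16a1, the MCT1 carrier for lactate and pyruvate, was the 1 of 13 tested transport genes called, at 24.0 to 29.5 CPM for YFP- libraries against 12.05 to 18.1 CPM for YFP+ (log2 change -0.78, SE 0.11, edgeR adjusted p = 1.35e-05). The groups did not overlap. Slc2a1, the GLUT1 glucose carrier, had a log2 change of -0.25 and did not pass (edgeR adjusted p = 0.224). Of 13 tested genes of glutamate and GABA entry 3 fell. Gpt2, the mitochondrial alanine transaminase that makes 2-oxoglutarate from glutamate, ranged from 10.2 to 14.2 CPM for YFP- against 3.99 to 6.004 CPM for YFP+ (log2 change -1.19, SE 0.17, edgeR adjusted p = 1.26e-05). Glul, glutamine synthetase, also fell (-0.17, edgeR adjusted p = 0.0467), and its call was lost in 10 of 12 alternative settings.

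Control of pyruvate dehydrogenase gave 1 gene in each direction among 11 tested. Pdk4, a kinase that switches the complex off, had a log2 change of -0.79 (edgeR adjusted p = 1.3e-05) and was lower in 4 of 4 pairs. Its groups overlapped, at 20.6 to 55.1 CPM for YFP- libraries against 12.7 to 24.8 CPM in YFP+, and without the block the adjusted p was 0.327. Pdhx, the subunit that anchors E3 to the complex, was the 1 pathway gene that rose (0.42, edgeR adjusted p = 0.0318). It lost its call without the block (adjusted p = 0.0872) and without replicate 2, 3 or 4.

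Among 16 tested genes of other cycle steps and side reactions 3 fell. Me3, a mitochondrial malic enzyme, had a log2 change of -0.94 (edgeR adjusted p = 5.85e-04), Me1, its cytosolic NADP-dependent relative, -0.55 (0.0185) and Acly, which splits citrate to cytosolic acetyl-CoA, -0.22 (0.0154). None of the 3 was called without the block, and Me1 also lost its call without replicate 1 or 4 and Acly without replicate 1, 3 or 4. Sdha, of succinate dehydrogenase, had 96.2 to 107 CPM in YFP- libraries, against 98.6 to 114 CPM in YFP+, and did not pass. Hkdc1, a hexokinase-domain gene of gut epithelium, was the 1 of 13 other glycolytic isozymes and regulators called. It had 0.751 to 2.55 CPM for YFP- libraries against 0.104 to 1.02 CPM for YFP+ (log2 change -2.04, SE 0.57, edgeR adjusted p = 0.0243), and it lost its call without the block (adjusted p = 0.136) and without replicate 3 or 4. Epithelial markers moved the same way, and their part was not tested.

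Of 19 hypoxia factors and targets 3 fell, where 7.85% of all genes tested were called lower. Ndrg1, a stress-responsive gene, was at 128 to 173 CPM for YFP- libraries against 72.9 to 99.5 CPM for YFP+ (log2 change -0.73, SE 0.06, edgeR adjusted p = 3.56e-09). Adm, the peptide adrenomedullin, had -0.60 (adjusted p = 0.00385) and Egln3, a HIF prolyl hydroxylase, -0.42 (adjusted p = 0.0379), neither called without the block, and Adm also lost its call without replicate 4 and Egln3 whichever replicate was left out. Hif1a itself had a log2 change of -0.01, Epas1 0.11 and Vegfa 0.16, and these 3 did not pass. Among 7 transcription regulators Myc, a known activator of Hk2 and Ldha, was the 1 that fell. It ranged from 34.1 to 55.5 CPM for YFP- against 17.6 to 28.5 CPM for YFP+ (log2 change -0.84, SE 0.10, edgeR adjusted p = 1.5e-06). No gene passed in the lists of 6 mitochondrial metabolite carriers and 8 pentose phosphate genes, whose most abundant members per kilobase, Slc25a1 and H6pd, had log2 changes of 0.22 and 0.05.

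**Figure D4:**
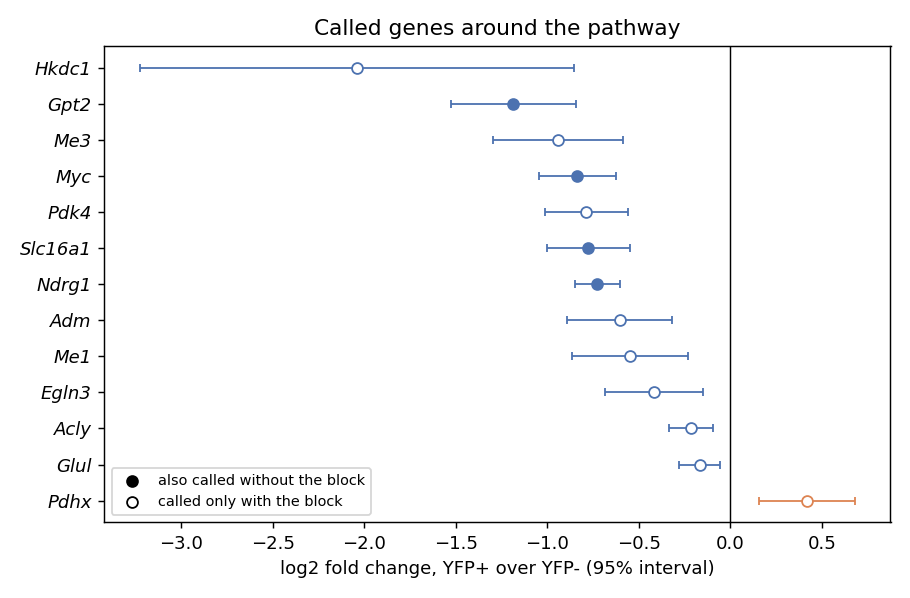
Log2 fold change of YFP+ over YFP- with its 95% interval for 13 of the 14 called genes among the 106 tested around the pathway; filled points were also called without the replicate block. Pdhx at 0.42 is the single rise, and the falls run from -0.17 (Glul) to -2.04 (Hkdc1).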

How the data were processed

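RNA of 8 libraries was analysed, 4 per group, from a stranded total RNA kit. The authors deposited raw counts per gene, with cutadapt 3.4, STAR 2.7.3a, featureCounts 2.0.1 and DESeq2 on GRCm38 named in the submitters' processing notes. The deposited table also gives the authors' log2 fold changes and adjusted p-values, and 8 normalised columns that were not used. Counts were fitted in R 4.3.3 with edgeR 4.0.16 (TMM, filterByExpr, robust quasi-likelihood F test, replicate number and group, Benjamini-Hochberg over 16354 genes, threshold 0.05). CPM use the TMM-scaled totals. The SE comes from the weighted fit and the posterior quasi-dispersion.

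Equal numbers pair the samples in these data: over 5200 genes deviations from group means correlated at 0.60, 0.64, 0.38 and 0.57 for equal numbers and from -0.42 to 0.05 for different ones. No label states what they share. DESeq2 1.42.0 with the number matched the deposited log2 values within 5e-04. All 28 pairs of libraries differed beyond sampling noise. Separate animals are not named, so the p-values reflect spread among these libraries, which may be technical. Exon lengths join the exons of all annotated transcripts of a gene, and may exceed the length of the transcripts present. Levels per kilobase, paralogue shares and their order depend on these lengths. Exon lengths and shared 50-base stretches come from GENCODE M21. Alternatives are listed in the closing section (limma 3.58.1 among the tools), and the test was tried on simulated data. The members and lists were chosen with earlier results of these data known. Named outside the members were up to 2 called genes per direction and list, or the most abundant per kilobase where none was called, with a few others given for context after their values were seen. Results for some pathway genes are not reported here.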

Additional observations from a re-analysis of the deposited data

Results flagged for a closer look

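Some 6 of 80 sets of 4 CPM values held a library far from the other 3, and about 1 in 20, or 4, would do so by chance. YFP- replicate 2 was high for Gapdh (27.7 CPM, the others 19.0 to 19.5). YFP- replicate 3 was high for Pgam1 (7.17 CPM, the others 5.15 to 5.40). YFP- replicate 4 was low for Dlst (57.6 CPM, the others 68.5 to 70.1) and for Idh2 (42.1 CPM, the others 45.1 to 45.7). YFP+ replicate 1 was low for Pfkm (22.9 CPM, the others 25.8 to 26.1) and YFP+ replicate 4 for Aco1 (54.0 CPM, the others 61.1 to 62.2). None of these genes was called, and neither Hk2 nor Ogdhl was among them.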

How the results depend on the processing

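The 12 alternatives changed the scaling (relative log expression, upper quartile), the filter (none, 1 CPM in 4 libraries), the tool (DESeq2, limma-voom) or the block (none), or dropped mitochondrial plus ribosomal RNA genes or 1 pair. With the block, the partner of a removed library says nothing on the difference, so both were removed. Hk2 (log2 fold change -0.82 to -0.68, highest adjusted p 0.0166) and Ogdhl (1.11 to 1.26, highest adjusted p 0.000676) kept their calls in all 12, and the other 36 tested enzymes were called in none. Without the replicate block 150 genes were higher and 547 lower, against 597 and 1283, and pathway genes gave 0 and 5 against 1 and 13. Without each pair, 331 to 500 genes were higher and 851 to 1126 lower, both lowest without replicate 3. Pathway genes then gave 0 to 1 higher and 8 to 13 lower, with 0 higher without replicate 2, 3 or 4 and 8 lower without replicate 4. DESeq2 called 0 pathway genes higher. Pdhx lost its call in 5 settings, Acly in 4, Egln3 in 7, Hkdc1 and Me1 in 3 each, and Adm in 2. The Ogdhl to Ogdh difference was 0.97 to 1.13 without each pair, with an exact permutation p of 0.1, the smallest for 3 against 3, and 1.05 (exact p = 0.125) with signs flipped over pairs, a replicate block. Intervals were wide for Ldhb, Pgam1 and the second Aldoa row, and Aldoc was too low to test.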
